A study of Homo sapiens with 9 samples.

Results

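The BCL2 family genes described here were chosen by name: 10 genes that encode anti-apoptotic proteins (BCL2, BCL2L1, MCL1 and BCL2A1), BH3-only proteins (BCL2L11, BMF, BBC3 and PMAIP1) and effectors (BAX and BAK1). Of these, 9 had a row among the 20893 transcript clusters tested, each with a single row, and BBC3 was not analysed here. The RNA came from the Hodgkin lymphoma cell line L-1236 and was measured on Clariom S arrays, which do not separate isoforms. Most annotated genes had 1 row, and 17 had several. There were 3 groups of 3 arrays: clone g2_1, which carries lentiCRIPSPR_v2-LTA_g2 with its guide in exon 2 of LTA, clone g3_4, which carries lentiCRIPSPR_v2-LTA_g3 with its guide in exon 4, and control cells with lentiCRIPSPR_v2 and no LTA guide named in the labels. The titles of the control arrays call these cells wild type. LTA encodes the secreted cytokine lymphotoxin alpha. Each knockout group is 1 single-cell clone, so a difference from control holds for that clone. Knockout clones had been kept in conditioned medium of L-1236 and all cells were then grown for 72 h in normal medium. Whether control cells were also a single clone or had seen conditioned medium is not given. Nor is it given that replicate arrays were grown separately, and so every p-value refers only to the scatter among these arrays, which can be technical. In bulk RNA, fewer cells of a kind and less RNA per cell cannot be told apart.

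Proteins of this family decide whether the outer mitochondrial membrane is opened, which releases cytochrome c and starts the caspases. BAX and BAK1 form the openings, the anti-apoptotic proteins hold them back, and BH3-only proteins bind the anti-apoptotic ones or the effectors and thereby favour death. Hodgkin and Reed-Sternberg cells are known for constant NF-kB activity, and BCL2L1 and BCL2A1 are known targets of that factor.

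The promoters of the 5 members that changed in both clones are shown first, since the values below are of transcripts started from them or from other starts of the same genes. They are taken from RefSeq on GRCh38.p14 and run from 250 bases before to 50 bases after a gene's start, and capitals mark every match to a searched motif on either strand. Of the 9 members measured, 8 were found in the promoter table; MCL1 was not. Which start L-1236 uses was not measured. BCL2A1 lies on the minus strand of chromosome 15 (chr15:79971147-79971446), BCL2L1 on the minus strand of chromosome 20 (chr20:31723914-31724213), BCL2L11 on the plus strand of chromosome 2 (chr2:111120664-111120963), PMAIP1 on the plus strand of chromosome 18 (chr18:59899746-59900045) and BMF on the minus strand of chromosome 15 (chr15:40108830-40109129).
BCL2A1: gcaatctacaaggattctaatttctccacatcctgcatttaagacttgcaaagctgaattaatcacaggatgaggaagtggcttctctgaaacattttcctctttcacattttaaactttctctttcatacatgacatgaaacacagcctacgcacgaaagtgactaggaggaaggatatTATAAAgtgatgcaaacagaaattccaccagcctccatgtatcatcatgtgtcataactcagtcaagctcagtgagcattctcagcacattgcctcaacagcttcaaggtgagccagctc
BCL2L1: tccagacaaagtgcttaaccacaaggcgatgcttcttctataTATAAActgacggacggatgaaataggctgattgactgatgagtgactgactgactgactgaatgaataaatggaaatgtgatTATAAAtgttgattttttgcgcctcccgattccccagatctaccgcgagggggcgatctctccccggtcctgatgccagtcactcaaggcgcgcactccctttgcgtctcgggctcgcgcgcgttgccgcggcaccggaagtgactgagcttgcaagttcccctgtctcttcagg
BCL2L11: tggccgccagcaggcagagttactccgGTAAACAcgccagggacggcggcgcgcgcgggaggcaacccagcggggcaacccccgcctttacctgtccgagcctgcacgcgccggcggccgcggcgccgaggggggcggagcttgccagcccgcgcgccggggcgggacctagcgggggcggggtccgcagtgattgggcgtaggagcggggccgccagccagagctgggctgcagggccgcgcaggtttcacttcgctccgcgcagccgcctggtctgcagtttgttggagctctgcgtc
PMAIP1: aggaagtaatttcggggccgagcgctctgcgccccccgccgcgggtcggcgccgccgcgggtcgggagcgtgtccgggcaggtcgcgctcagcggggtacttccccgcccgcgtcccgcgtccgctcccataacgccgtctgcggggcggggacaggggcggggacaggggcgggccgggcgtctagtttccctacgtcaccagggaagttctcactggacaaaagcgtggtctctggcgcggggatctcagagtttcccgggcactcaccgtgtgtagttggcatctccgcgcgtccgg
BMF: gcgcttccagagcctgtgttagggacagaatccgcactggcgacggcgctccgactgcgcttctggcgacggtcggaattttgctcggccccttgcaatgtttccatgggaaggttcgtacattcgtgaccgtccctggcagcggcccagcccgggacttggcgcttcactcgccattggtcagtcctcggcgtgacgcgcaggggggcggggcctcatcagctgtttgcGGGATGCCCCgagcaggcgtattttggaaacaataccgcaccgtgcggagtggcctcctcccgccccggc

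Base composition set BCL2A1 apart among the windows printed above, as a description. Its promoter held 41.0% G or C and 2 CG pairs, against 52.0% and 20 for BCL2L1, 74.7% and 39 for BCL2L11, 71.3% and 42 for PMAIP1, and 65.0% and 31 for BMF. The second listed start of BMF, not printed, held 50.3% and 1 CG pair, so few CG pairs are not particular to BCL2A1. The median over all 35116 promoters of the table was 58.7% G or C. Searched on both strands was TGTTTAC, bound by FOXO factors. The others were the AP-1 motif TGANTCA, in 7.71% of all promoters, the cyclic AMP response element TGACGTCA, in 1.85%, the TATA box motif TATAAA and the kappa B consensus of NF-kB. BCL2L11 held TGTTTAC on the reverse strand, at positions -223 to -217 from its start, a motif found in 3.42% of all promoters. In BMF the kappa B consensus stood at positions -20 to -11, and 11.3% of all promoters held it. TATAAA occurred in BCL2A1 and at 2 places in BCL2L1, and in 11.5% of all promoters. A match is only a run of letters in these windows. The second listed starts of BCL2L1 and BMF, and the windows of BCL2, PMAIP1, BAX and BAK1, held none of the 5 motifs.

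LTA was examined first as a check of the labels. Its log2 value was 7.97, 7.53 and 7.11 in g2_1, 6.94, 7.25 and 6.61 in g3_4, and 11.58, 11.07 and 11.08 in control cells, and no array of a clone reached any control array. Of 6 Hodgkin cell markers, TNFRSF8 (CD30) rose by 0.79 in g2_1 and by 0.70 in g3_4, CD40 fell by 4.70 in g2_1 and by 4.85 in g3_4, and 4 did not pass in both clones. Of these 4, IRF4 was higher on all knockout arrays (11.94 to 12.05) than on control arrays (11.76 to 11.92). CCL17 was lower on all knockout arrays (5.63 to 6.04, against 6.20 to 7.59). FUT4 and FSCN1 overlapped. Among 6 T cell markers, CD2 and CD4 rose in both clones, with a summed linear signal of the list of 1480 to 1780 in g2_1, 1470 to 1700 in g3_4 and 548 to 956 in control cells, while the defining genes CD3D, CD3E and CD3G stayed between 3.89 and 4.98. First quartiles of the 9 arrays were 4.62 to 4.66, which serves here as a mark of the array's floor. PAX5 was the 1 of 4 measured B cell markers to pass in both clones, where it fell, with list sums of 271 to 295 in g2_1, 296 to 317 in g3_4 and 354 to 437 in control cells. None of 6 myeloid and 5 measured fibroblast markers passed in both clones. Of these, CD68 was higher on all knockout arrays (6.11 to 6.82, against 5.41 to 6.0 in control cells). COL1A2 was also higher on all of them (7.95 to 8.29, against 7.82 to 7.94), and the others overlapped. Fibroblast list sums were 419 to 512 in g2_1, 426 to 447 in g3_4 and 407 to 410 in control cells. Myeloid list sums overlapped, at 371 to 441, 319 to 414 and 321 to 406 in the same order. The part of these markers in the results was not tested.

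Among the 9 members, 4 fell and 1 rose in both clones against control, and 4 passed in neither clone. Of all tested transcript clusters, 14.3% passed in g2_1 (6.19% higher, 8.06% lower) and 14.3% in g3_4 (6.12% higher, 8.16% lower). Falls were of BCL2L11, BCL2A1, PMAIP1 and BCL2L1, and the rise was of BMF. The fallen genes thus include anti-apoptotic (2 of 4) and BH3-only members (2 of 3), and neither effector passed. Here a gene passes at an adjusted p under 0.05 in limma, with Benjamini-Hochberg adjustment over all tested transcript clusters. By the same rule 6.97% of all tested transcript clusters fell and 4.48% rose in both clones. With an absolute log2 difference of at least 1 required as well, the 4 falls remained and the rise did not, against 2.90% of all transcript clusters lower and 0.708% higher. The median log2 difference of the 9 members in the mean of both clones was -0.29, against 0.04 (0.035) over all tested transcript clusters. Because the members were picked with earlier results known, these counts describe the list and are not a test of it. Both clones are set against the same 3 control arrays.

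**Figure D1:**
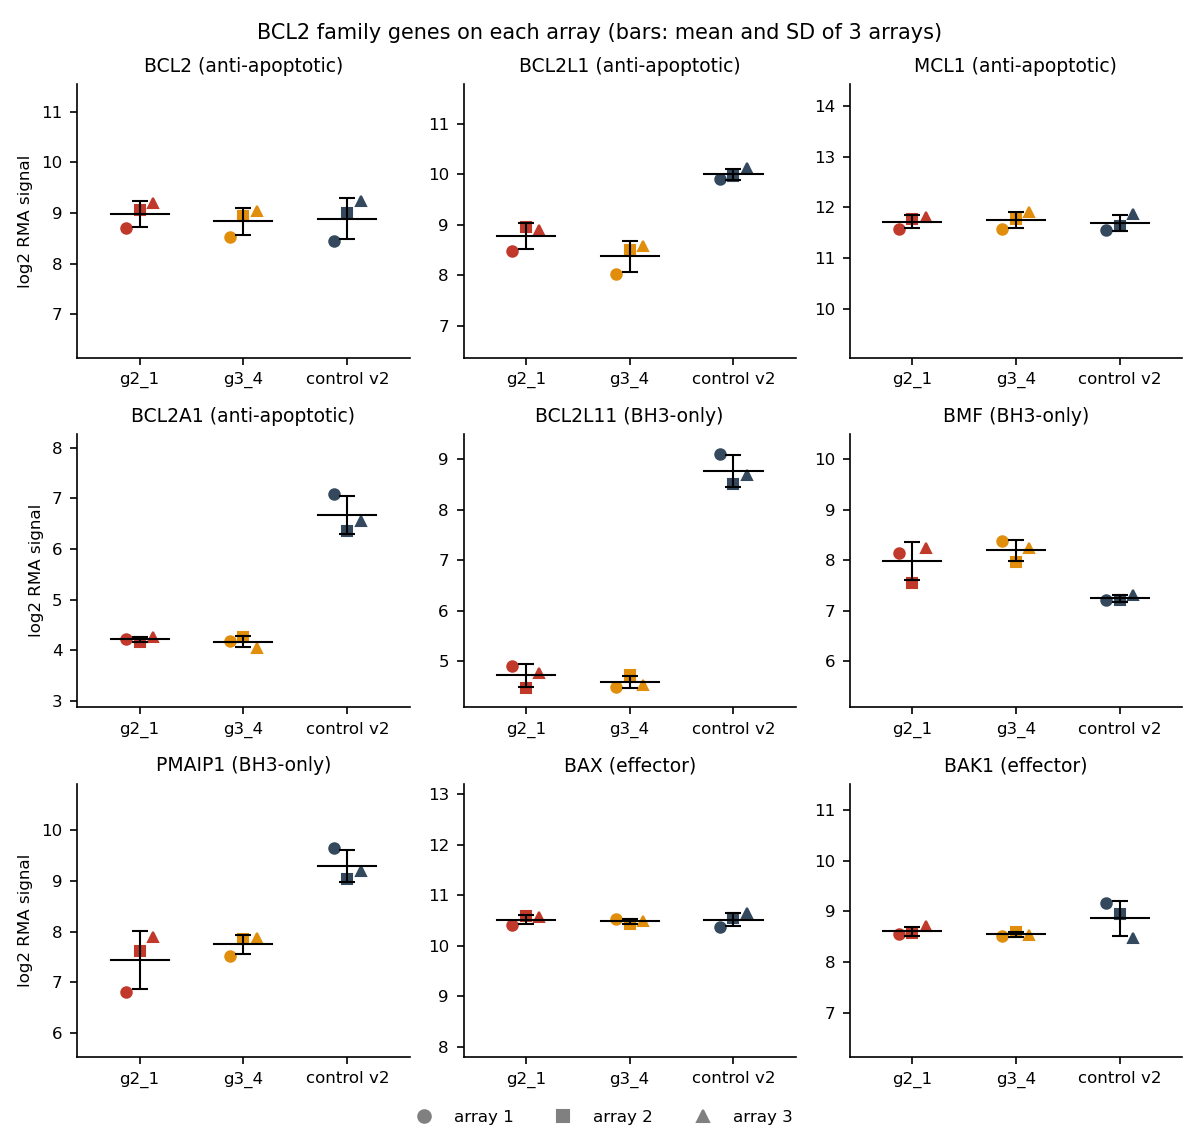
Log2 signal of each measured BCL2 family gene (vertical axis, the same span of log2 units in every panel) on the 3 arrays of clone g2_1, clone g3_4 and control v2. Points are arrays, with a shape for each array number, and bars are the mean and SD. The knockout arrays of BCL2L11, BCL2A1, PMAIP1 and BCL2L1 all lie below the control arrays, those of BMF lie above, and the other panels overlap.

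BCL2L1, which encodes BCL-XL, an inhibitor of BAX and BAK1, was lower in both clones. It had log2 values of 8.48, 8.96 and 8.90 in g2_1, 8.03, 8.51 and 8.59 in g3_4, and 9.91, 9.96 and 10.12 in control cells. The highest knockout array stood 0.95 below the lowest control array. BCL2L1 was 2.32-fold lower in g2_1 (95% confidence interval 1.80 to 3.01, log2 difference -1.22, SE 0.17, adjusted p = 6.3e-04) and 3.07-fold lower in g3_4 (2.38 to 3.98, log2 difference -1.62, SE 0.17, adjusted p = 8.5e-05). This fall leaves the gene well above the floor of the array in all groups.

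BCL2A1, an anti-apoptotic protein also called BFL-1 that binds BH3-only proteins, had values of 4.21, 4.16 and 4.26 in g2_1, 4.18, 4.26 and 4.05 in g3_4, and 7.09, 6.35 and 6.56 in control cells. All 6 knockout values lie under the first quartile of their arrays, so the size of the fall is limited by the floor. It was 5.49-fold lower in g2_1 (log2 difference -2.46, SE 0.16, adjusted p = 2.4e-06) and 5.67-fold lower in g3_4 (log2 difference -2.50, SE 0.16, adjusted p = 2.1e-06). The knockout arrays spanned only 4.05 to 4.26, whereas the control arrays had an SD of 0.38.

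The remaining anti-apoptotic genes did not pass. BCL2, the founding member of the family, had 8.70, 9.05 and 9.19 in g2_1, 8.53, 8.95 and 9.03 in g3_4, and 8.44, 8.99 and 9.24 in control cells, and the groups overlapped fully. Its log2 difference was 0.09 in g2_1 (95% confidence interval -0.38 to 0.56) and -0.05 in g3_4 (-0.52 to 0.41), and the second turned to 0.06 after centring each array on its median. MCL1, a short-lived protein that holds BAK1, had 11.57, 11.78 and 11.81 in g2_1, 11.58, 11.78 and 11.90 in g3_4, and 11.56, 11.63 and 11.87 in control cells. Its difference was 0.03 in g2_1 (-0.24 to 0.31) and 0.07 in g3_4 (-0.21 to 0.34). The intervals are narrower for MCL1 than for BCL2, whose arrays spread more within each group. In BCL2 the values rose from array 1 to array 3 in every group, a shift that the main fit does not remove.

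BCL2L11, which encodes BIM, a BH3-only protein that binds all the anti-apoptotic members, showed the largest difference of the 9. Its values were 4.92, 4.48 and 4.78 in g2_1, 4.50, 4.73 and 4.54 in g3_4, and 9.11, 8.50 and 8.68 in control cells. A gap of 3.58 log2 units separated the highest knockout array from the lowest control array. BCL2L11 was 16.4-fold lower in g2_1 (95% confidence interval 12.8 to 21.1, log2 difference -4.04, SE 0.16, adjusted p = 4.9e-08) and 18.0-fold lower in g3_4 (14.0 to 23.2, log2 difference -4.17, SE 0.16, adjusted p = 3.6e-08). The knockout values lie around the first quartile of the arrays, so this size too is limited by the floor. Of all tested transcript clusters, 60 (0.287%), BCL2L11 included, passed as lower in both clones with a mean difference at least as low.

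PMAIP1 encodes NOXA, a BH3-only protein that binds MCL1 and BCL2A1. It had 6.80, 7.62 and 7.89 in g2_1, 7.52, 7.85 and 7.87 in g3_4, and 9.65, 9.05 and 9.20 in control cells. Array 1 of g2_1 was lowest and array 1 of the control highest, and the SD in g2_1 (0.57) was the widest of any member in any group. PMAIP1 was 3.64-fold lower in g2_1 (log2 difference -1.86, SE 0.25, adjusted p = 5.6e-04) and 2.94-fold lower in g3_4 (log2 difference -1.55, SE 0.25, adjusted p = 0.0019). Without any of the arrays numbered 1 it was still lower, at -1.37 in g2_1 and -1.27 (-1.265) in g3_4, and passed in both.

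BMF, a BH3-only protein that binds a dynein light chain, was the member that rose. It had 8.15, 7.56 and 8.24 in g2_1, 8.38, 7.97 and 8.24 in g3_4, and 7.21, 7.21 and 7.32 in control cells, with a gap of 0.24 between the nearest arrays. BMF was 1.67-fold higher in g2_1 (log2 difference 0.74, SE 0.17, adjusted p = 0.0152) and 1.93-fold higher in g3_4 (log2 difference 0.95, SE 0.17, adjusted p = 0.0037). The call in g2_1 was lost without array 1 of that clone (0.65, adjusted p = 0.0652), without its array 3 (0.61, adjusted p = 0.0671) and without all arrays numbered 1 (0.64, as 0.635, adjusted p = 0.0795). In g3_4 it held under each of these.

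The effectors did not pass. BAX had 10.42, 10.58 and 10.56 in g2_1, 10.53, 10.43 and 10.49 in g3_4, and 10.37, 10.55 and 10.64 in control cells. Its log2 difference was 0.00 in g2_1 (95% confidence interval -0.22 to 0.22) and -0.04 in g3_4 (-0.26 to 0.19), and 0.11 and 0.07 in the same clones after centring. BAK1 had 8.55, 8.57 and 8.71 in g2_1, 8.51, 8.60 and 8.53 in g3_4, and 9.17, 8.94 and 8.48 in control cells, so that control array 3 lay below every knockout array and the other control arrays above. Its difference was -0.25 in g2_1 (-0.59 to 0.08) and -0.32 in g3_4 (-0.65 to 0.02). Without control array 3 BAK1 passed as lower, at -0.45 (-0.445) in g2_1 (adjusted p = 0.0272) and -0.51 in g3_4 (adjusted p = 0.0146). Without control array 1 the difference shrank instead, to -0.10 in g2_1 (adjusted p = 0.714) and -0.16 in g3_4 (adjusted p = 0.507), and without all arrays numbered 1 it was -0.07 and -0.145 in the same clones.

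**Figure D2:**
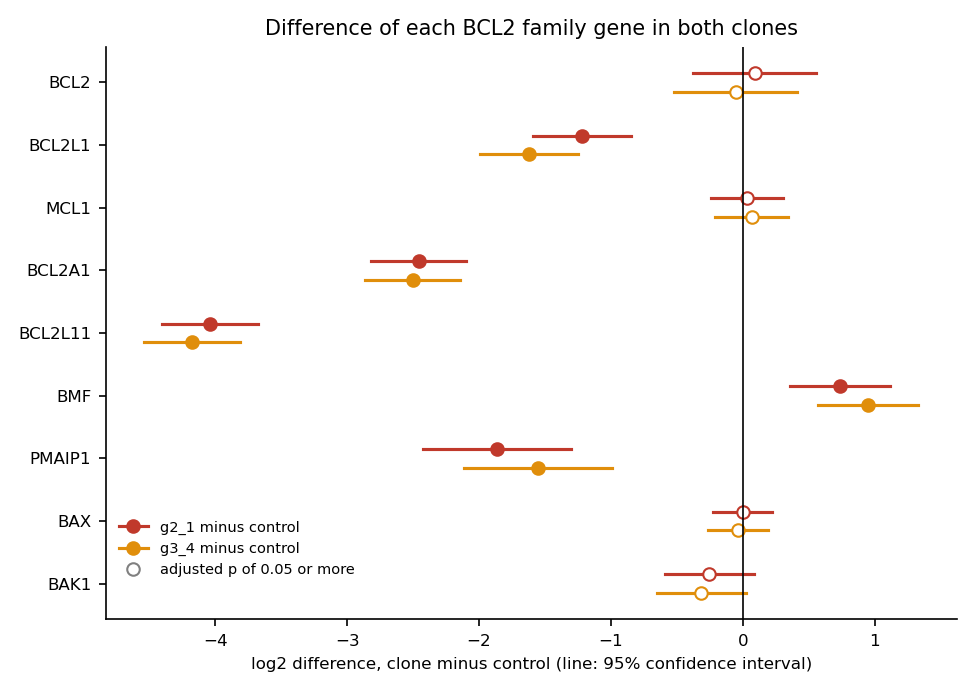
Log2 difference of each BCL2 family gene (rows) from control in clone g2_1 and clone g3_4, with 95% confidence intervals from limma as lines. Filled points have an adjusted p under 0.05. BCL2L11 stands at -4.04 and -4.17, BMF is the filled pair right of 0, and BCL2, MCL1, BAX and BAK1 have open points.

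With both clones pooled, each of the 5 changed members had an exact two-sided permutation p of 0.0119 for 6 knockout against 3 control arrays, the smallest that the 84 splits can give. The 6 and the 3 arrays did not overlap in these 5, as was true of 20.4% of all tested transcript clusters. The 5 had been called from the same arrays, and arrays of a clone are not independent knockouts. That p is therefore a description and no further support. BAK1 reached p = 0.0833 in that exact test, MCL1 0.631, BAX 0.774 and BCL2 0.893.

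Clone g2_1 was also set directly against clone g3_4. None of the 9 members passed (0 in limma), against 0.0526% of all tested transcript clusters. At an unadjusted p under 0.05 the count was 1, BCL2L1, which was higher in g2_1 by 0.40 (95% confidence interval 0.03 to 0.77, adjusted p = 0.997), and 4.41% of all transcript clusters had such a p. In a test with unequal variances it was 0 of 9, against 4.84% of all transcript clusters. Since array numbers pair the clones, a replicate block for the number was also fitted. That fit used all 9 arrays, so control arrays also shape its intervals. Again 0 of 9 passed, with BCL2L1 the 1 member at an unadjusted p under 0.05, against 6.32% of all transcript clusters. BCL2L1 was higher in g2_1 by 0.45, 0.45 and 0.31 in the 3 pairs (with the replicate block 95% confidence interval 0.16 to 0.65, adjusted p = 0.393). BCL2 was higher by 0.17, 0.10 and 0.16, and its interval narrowed to -0.07 to 0.36 with the block, against -0.32 to 0.61 without. PMAIP1 differed by -0.72, -0.23 and 0.02, with an interval of -0.88 to 0.26 with the block and -0.87 to 0.25 without.

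The medians of the arrays differed, at 6.17 on each g2_1 array, 6.15 to 6.19 in g3_4 and 6.27 to 6.29 in control cells. Subtracting them moved every difference from control by 0.11, and the median change of all transcript clusters was then 0.15 in the mean of both clones, against 0.04 (0.035) as deposited. On the centred scale BCL2L11 stood at -3.92 in g2_1 and -4.06 in g3_4, BCL2A1 at -2.34 and -2.39, PMAIP1 at -1.75 and -1.44, BCL2L1 at -1.10 and -1.51, and BMF at 0.85 and 1.06. All 5 passed in both clones, and the other 4 did not. Of all tested transcript clusters 2924 passed in both clones with the same sign after centring, against 2391 as deposited. The split of all calls depended on this centre: 56.6% of those in g2_1 and 57.2% of those in g3_4 were lower as deposited, against 34.0% and 36.5% after centring.

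The neighbourhood of each changed member was examined through the 10 nearest tested genes on each side in the RefSeq order. For all 5 the median change of the 20 neighbours was small, from -0.02 (BCL2A1, and PMAIP1) to 0.08 (BCL2L11) in the mean of both clones. With the median of the neighbours subtracted on each array, BCL2L11 stood at -4.13 in g2_1 and -4.25 in g3_4, BCL2A1 at -2.38 and -2.46, PMAIP1 at -1.71 and -1.40, BCL2L1 at -1.22 and -1.60, and BMF at 0.69 and 0.89, and all passed in both clones. Single neighbours moved far, as was seen after their values were known. MERTK, a receptor tyrosine kinase gene 2 places from BCL2L11, had a mean change of -3.25. On one side of PMAIP1, ALPK2 (-4.04), ZNF532 (-3.23, from -3.225), MALT1 (-1.63) and NEDD4L (-1.41) lay next to one another in the order. Of the 20 neighbours of BAX 6 fell in both clones, and 4 fell beside each of BAK1, BCL2A1 and PMAIP1, where 6.97% of all tested transcript clusters did. The neighbours of BAX include related CGB genes, with mean changes from -0.88 (CGB8) to -0.23 (CGB5), so they are not independent of one another. The neighbours' medians were lowest for BAX (-0.21) and BAK1 (-0.25).

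**Figure D3:**
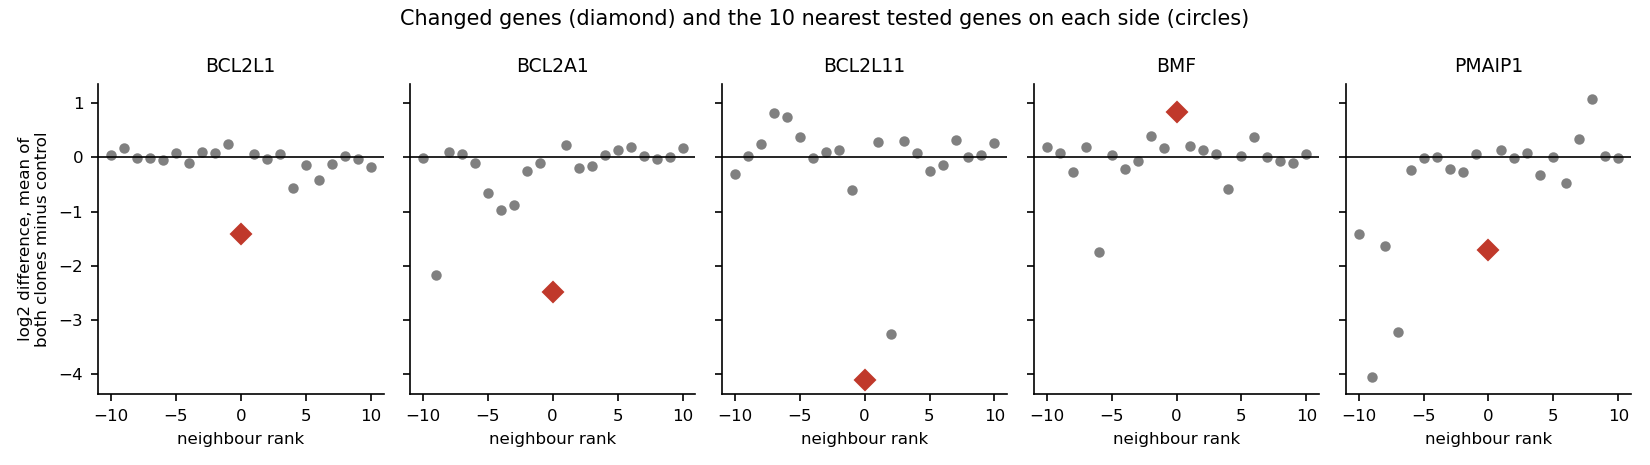
Log2 difference of the mean of both clones from control (vertical axis) for the 5 changed members (diamonds) and the 10 nearest tested genes on each side (circles), by rank in the RefSeq order. Most circles lie near 0, with MERTK at -3.25 beside BCL2L11 and ALPK2 at -4.04 on one side of PMAIP1.

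Arrays numbered 1 had RNA with an integrity number of 10, against 9.5 to 9.6 for the others, and several members moved with that number. BCL2 was lower on array 1 than on the mean of arrays 2 and 3, by a value of -0.42 in g2_1, -0.46 in g3_4 and -0.68 in control cells. MCL1 behaved alike, at -0.23 (-0.225), -0.26 and -0.19. BCL2L1 stood at -0.45 in g2_1, -0.52 in g3_4 and -0.13 in control cells. In 4 genes control array 1 was instead the highest of its group, by 0.64 over the mean of the others for BCL2A1 (0.635), 0.53 for PMAIP1 (0.525), 0.52 for BCL2L11 and 0.46 for BAK1. The falls of the first 3 were thus largest against control array 1, and all of them held without the arrays numbered 1. The part of RNA quality in these values was not tested.

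**Figure D4:**
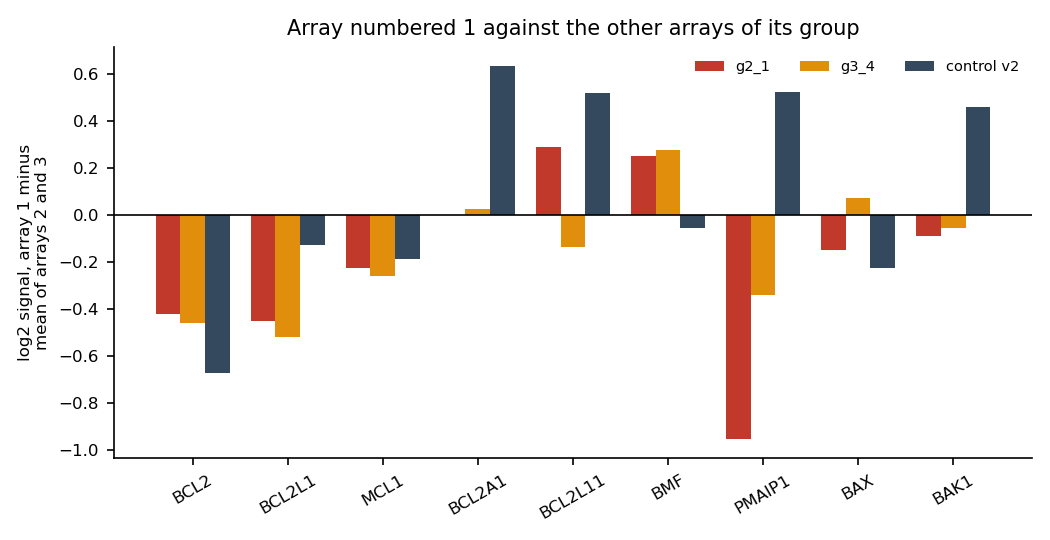
Log2 signal of array 1 minus the mean of arrays 2 and 3 of the same group (vertical axis) for each BCL2 family gene, in clone g2_1, clone g3_4 and control v2 (bars). BCL2 and MCL1 are below 0 in all 3 groups, and BCL2A1, BCL2L11, PMAIP1 and BAK1 have their tallest bars above 0 in the control.

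Of 13 other genes of the BCL2 family, 1 fell and 0 rose in both clones, with a median difference of 0.08 in the mean of both clones, where 6.97% of all tested transcript clusters fell and 4.48% rose in both clones. BNIP3, a mitochondrial protein with a BH3-like stretch that acts in mitophagy and is induced by hypoxia, had 5.85, 5.67 and 5.60 in g2_1, 5.87, 5.64 and 5.49 in g3_4, and 7.64, 6.69 and 7.01 in control cells. It was 2.65-fold lower in g2_1 (adjusted p = 9.5e-04) and 2.73-fold lower in g3_4 (adjusted p = 8.0e-04). Of the rest, the anti-apoptotic BCL2L2 lay between 7.54 and 7.96 on all 9 arrays, and BID, which caspases cut to activate it, between 7.48 and 7.88. The BH3-only genes BAD (7.36 to 7.67), BIK (5.53 to 5.96) and HRK (6.07 to 6.51) did not pass either, nor did the effector-like BOK (5.64 to 6.02). The highest mean change of the list was 0.26.

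Downstream of the mitochondria, 2 of 15 measured genes of the apoptosome, the caspases and their inhibitors rose in both clones and 0 fell, beside the 4.48% and 6.97% of all transcript clusters, with a list median of 0.02. CASP2, an initiator caspase, had 10.89, 11.07 and 11.05 in g2_1, 11.14, 11.16 and 11.16 in g3_4, and 10.31, 10.32 and 10.40 in control cells. Its log2 difference was 0.66 in g2_1 (adjusted p = 6.1e-04) and 0.81 in g3_4 (adjusted p = 1.5e-04). CASP8, the initiator caspase of death receptors, was at 0.72 in g2_1 (adjusted p = 0.0167) and 0.79 in g3_4 (adjusted p = 0.0098), with control array 1 at 8.89 below the other control arrays. Its call in g2_1 was lost without any 1 of the 3 arrays of that clone (0.70 to 0.73, adjusted p from 0.0502 to 0.0622). None of 11 binding partners and turnover factors of the family passed in both clones, and their differences in the mean of both clones ran from -0.39 to 0.41.

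Among 17 measured transcription factors known to act on BCL2 family genes, 2 rose and 4 fell in both clones, beside the 4.48% and 6.97% of all transcript clusters, with a median of -0.02. REL, an NF-kB subunit, had 7.35, 7.43 and 7.54 in g2_1, 7.17, 7.43 and 7.37 in g3_4, and 9.73, 9.0 and 9.23 in control cells. It was 3.68-fold lower in g2_1 (adjusted p = 2.5e-05) and 3.99-fold lower in g3_4 (adjusted p = 1.5e-05), with no overlap. NFKB1, which was named after its values were seen, was at -0.87 in g2_1 and -0.97 in g3_4. The other NF-kB genes of the list, also named afterwards, did not pass in both clones. RELA was higher on all knockout arrays (9.30 to 9.94, against 9.14 to 9.26 in control cells). NFKB2 was lower on all of them (9.76 to 10.47, against 10.64 to 10.90), and RELB overlapped. FOXO1, a forkhead factor, rose by 1.01 in g2_1 (adjusted p = 0.0044) and by 1.07 in g3_4 (adjusted p = 0.0031), with control values of 6.57, 7.47 and 7.18. TP73, a relative of p53, fell by 2.47 in g2_1 and by 2.41 in g3_4, and control array 1 at 8.69 stood above the other control arrays at 6.82 and 7.04.
DDIT3, a factor of the stress response, had differences of -2.35 in g2_1 (adjusted p = 0.0219) and -2.15 in g3_4 (adjusted p = 0.0333). Control array 1 stood at 6.82, against 9.8 and 9.17 on the other control arrays. The calls depend on single arrays. Without control array 1 the values were -3.24 (-3.235, adjusted p = 8.5e-06) and -3.04 (adjusted p = 1.4e-05), and without all arrays numbered 1 they were -3.05 (adjusted p = 4.5e-05) and -2.88 (-2.875, adjusted p = 6.7e-05). Without control array 2 the values were -1.75 (-1.745, adjusted p = 0.0729) and -1.55 (adjusted p = 0.109), and without control array 3 they were -2.06 (adjusted p = 0.0716) and -1.86 (adjusted p = 0.102). The call in g2_1 was also lost without array 1 or 2 of that clone, and the call in g3_4 without array 2 of g2_1 or any 1 array of g3_4. STAT5B, a mediator of cytokine signals, was at 0.63 in g2_1 (adjusted p = 0.02) and 0.52 in g3_4 (adjusted p = 0.0489). The first call was lost without array 1 or 3 of g2_1, and the second without any 1 array other than control array 3, with a value of 0.32 (adjusted p = 0.0803) without control array 1. Without all arrays numbered 1 neither passed, at 0.39 in g2_1 (adjusted p = 0.0662) and 0.295 in g3_4 (adjusted p = 0.159).

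**Figure D5:**
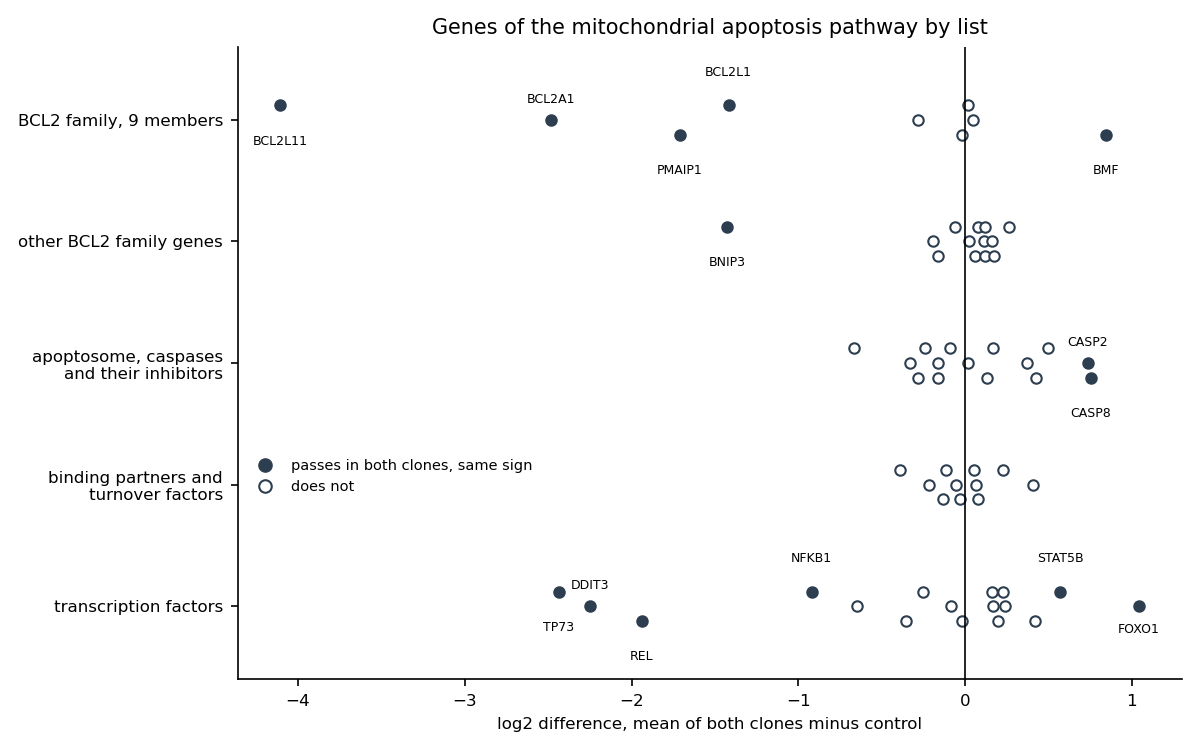
Log2 difference of the mean of both clones from control (horizontal axis) for the 9 measured BCL2 family members and 4 lists of related genes (rows). Filled points pass in both clones with the same sign and are labelled. BCL2L11 at -4.11 (-4.105) lies furthest left of all genes plotted.

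For each changed member the named transcript clusters with the most similar values were sought among 17705, as the smallest root mean square difference over 9 arrays after subtracting each row's mean. Nearest to BCL2L11 were ALCAM (0.14 log2 units), ALPK2 (0.15) and SLC5A11 (0.18), and ALPK2 is also one of the neighbours of PMAIP1 given above. BCL2A1 was followed most closely by ZC4H2 (0.15), QSOX1 (0.15) and ZNF280B (0.16). For BCL2L1 they were ZNF518B (0.12), PPARG (0.13) and SKIL (0.167), and for BMF they were ADD2 (0.16), PALM2AKAP2 (0.175) and EEIG1 (0.18). PMAIP1 had the least close matches, TSPAN5 (0.21), SFXN5 (0.22) and CEP72 (0.23). The 9 arrays form 3 groups, so these distances mostly compare group means.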

How the data were processed

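RMA in Transcriptome Analysis Console 4.0 is named by the submitters' processing notes, and the values deposited by the authors are on a log2 scale. No detection flags were given, and the genome build is not given in the sources used here. The number of arrays limits the precision. The 555 rows with IDs of unmapped probe sets were not used, and 20893 were tested, of which 17705 had 1 gene symbol, 3188 none and 0 several. Gene IDs were matched in RefSeq (GRCh38.p14), used for names, neighbour order and promoters.

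The model was a limma 3.58.1 fit under R 4.3.3 (lmFit and eBayes, 1 coefficient per group, all 9 arrays, two-sided, Benjamini-Hochberg over all tested rows). The fit was also run on simulated data with independent arrays, so that run does not cover scatter shared by array number. Exact permutation tests used scipy 1.17.1. Members and gene lists were chosen with earlier results of these data known. Named were all members, LTA, up to 3 risen and 3 fallen genes of each list and the 3 nearest patterns of each changed member. Some markers, NF-kB genes and neighbours were named outside this rule after their values were seen.

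Deviations of same-numbered arrays from their group means correlated at 0.435, 0.191 and 0.31 between the clones, so the number pairs the clones. With control arrays they correlated at 0.285, 0.0426 and 0.183 for g2_1 and 0.298, 0.0565 and 0.257 for g3_4. Because the pairs numbered 2 lie under 0.1, the number was not taken to pair clones with control. The pairs numbered 1 and 3 correlated more, so intervals against control can hold scatter that the 3 groups share by number. The main fit has no block, and the block is an alternative. Alternatives were centring, variance trend, a filter on low rows, only the groups compared, array weights, a replicate block, leaving out arrays, unequal variances, unmapped rows included and subtracting neighbours.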

Additional observations from a re-analysis of the deposited data

How the results depend on the processing

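The 5 members BCL2L1, BCL2A1, BCL2L11, BMF and PMAIP1 passed in both clones under 7 settings: centring, a variance trend with robust fitting, the rows of lowest mean level left out, only the groups compared, array weights, the replicate block and unmapped rows included. Of these, only the groups compared leaves out the arrays of the third group. The 5 members also passed in both clones with neighbours subtracted. Leaving out 1 array gave 4 to 6 members (4 without array 1 or 3 of g2_1, 6 without control array 3), and leaving out all arrays numbered 1 gave 4. Of all transcript clusters, 2391 passed in both clones in the main fit, and 1844 (only the groups compared) to 3010 (replicate block) under the 7 settings. The count was 1870 without array 1 of g2_1, 1830 without its array 3, 2439 without control array 3 and 2191 without all arrays numbered 1. A test with unequal variances, which has few degrees of freedom here, passed 0 members in g2_1, 0 in g3_4 and 0 in both. There BCL2L11 had an adjusted p of 0.0519 in g2_1 and 0.0763 in g3_4, and with the clones pooled 4 of 9 members passed. Of the 5 changed members, BCL2A1 was the one that did not pass with the clones pooled (adjusted p = 0.0951). The SD of BCL2A1 was 0.38 for the control arrays, against 0.05 for g2_1 and 0.11 for g3_4. Over all transcript clusters that test passed 31 in g2_1, 65 in g3_4, 895 with the clones pooled and 0 between the clones. The main fit passed 2979, 2983, 3751 and 11 in the same order. With unequal variances 1012 had an unadjusted p under 0.05 between the clones. The replicate block gave 3819 in g2_1, 3771 in g3_4, 4585 in their mean and 27 between the clones, and changed no call of a member. Between the clones 32 passed with only those groups in the fit, 50 with array weights and 29 without the arrays numbered 1. Leaving out single arrays gave 4 to 45 there: 45 without control array 1, 4, 7, 7, 6, 5 and 6 without g2_1 arrays 2 and 3, g3_4 arrays 1, 2 and 3 and control array 3. Each member has 1 row, so choosing another row gave no value. Among the values of single named genes, 57 under other settings and 30 under left-out arrays no longer passed, 3 came to pass, and 0 that passed turned in direction. The cause of these shifts was not tested.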
